A study of Mus musculus with 17 samples.

Results

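The genes described here encode proteins of the specific and gelatinase granules of neutrophils, the secondary and tertiary granules in the older naming. The 10 genes are lactoferrin (Ltf), cathelicidin (Camp), lipocalin 2 (Lcn2), neutrophilic granule protein (Ngp), the collagenase Mmp8, the gelatinase Mmp9, olfactomedin 4 (Olfm4), ficolin B (Fcnb), the chitinase-like protein Ym1 (Chil3) and haptoglobin (Hp). They were taken by name from the 19938 genes measured by a feature that carries 1 gene symbol, and all 10 were measured, each by 1 such feature. The arrays hold RNA from CD11b+ cells of the spleen, enriched on magnetic beads and then sorted by flow cytometry into 2 subsets. The gate for Mo (monocytic) cells was Ly-6C(high)Ly-6G(low) and that for PMN (polymorphonuclear) cells Ly-6C(low)Ly-6G(high). Spleens of female BALB/c mice were pooled. Tumour-bearing mice had received 100000 Her-2/CT26 cells under the skin, where CT26 is a colon carcinoma line of BALB/c origin, and naive mice had received no tumour. The 17 arrays fall into 6 groups. Mo cells came from naive mice (n = 3) and from mice at 3 weeks (n = 3) and 6 weeks (n = 3) of tumour growth. PMN cells came from naive mice (n = 4) and from mice at 3 weeks (n = 2) and 6 weeks (n = 2). The study asked what makes these cells, which the labels call myeloid-derived suppressor cells in every group, more suppressive as the tumour grows. Mouse age is not given in the sources used here, and no source states that each replicate was a pool of its own, so a p-value here covers only array-to-array spread, part or all of which may be technical.

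Neutrophils fill their granules in a fixed order while they mature in the marrow. The azurophil proteins such as myeloperoxidase are made first, in promyelocytes, the specific granule proteins such as lactoferrin follow in myelocytes and metamyelocytes, and the gelatinase granule proteins come last. The factor C/EBP epsilon is known to drive specific granule genes, and the mature cell largely stops transcribing them while it keeps the stored proteins. Several of the proteins bind iron or its carriers, others kill bacteria or cut matrix, and Chil3 and Hp are also known from monocytes and macrophages.

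The bases before the transcription start are shown for 4 of the genes, chosen after the values were seen because they separate the 2 time courses in Mo cells. Chil3 and Mmp8 already passed as higher at 3 weeks, and Ngp and Ltf passed only at 6 weeks. The 3-week call of Chil3 was narrow (limma adjusted p = 0.048) and held in 4 of 17 fits that left out 1 array. RefSeq promoters on GRCm38.p6 were found for 8 of the 10 genes, and Mmp9 and Hp had no entry. Each line gives 250 bases upstream of the start, 5′ to 3′ on the strand of the gene, and capitals mark matches to TTNNGNAA on either strand, a form of the C/EBP motif. The regions are chr3:106167565-106167814 on the minus strand for Chil3, chr9:7558179-7558428 on the plus strand for Mmp8, chr9:110419558-110419807 on the plus strand for Ngp and chr9:111019042-111019291 on the plus strand for Ltf.
Chil3: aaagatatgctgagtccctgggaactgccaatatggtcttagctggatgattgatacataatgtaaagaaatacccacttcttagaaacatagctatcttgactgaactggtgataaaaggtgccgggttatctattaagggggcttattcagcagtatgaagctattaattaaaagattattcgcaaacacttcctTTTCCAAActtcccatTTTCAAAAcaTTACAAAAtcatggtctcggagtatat
Mmp8: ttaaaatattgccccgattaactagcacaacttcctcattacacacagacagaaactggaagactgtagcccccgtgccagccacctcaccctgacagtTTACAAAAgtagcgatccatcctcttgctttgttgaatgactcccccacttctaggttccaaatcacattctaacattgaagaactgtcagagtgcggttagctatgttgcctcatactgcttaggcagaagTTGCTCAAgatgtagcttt
Ngp: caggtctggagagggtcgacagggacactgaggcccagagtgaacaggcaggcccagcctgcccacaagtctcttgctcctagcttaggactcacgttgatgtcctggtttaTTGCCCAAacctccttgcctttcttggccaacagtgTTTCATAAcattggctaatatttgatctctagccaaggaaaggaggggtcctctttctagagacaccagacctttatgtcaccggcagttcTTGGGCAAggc
Ltf: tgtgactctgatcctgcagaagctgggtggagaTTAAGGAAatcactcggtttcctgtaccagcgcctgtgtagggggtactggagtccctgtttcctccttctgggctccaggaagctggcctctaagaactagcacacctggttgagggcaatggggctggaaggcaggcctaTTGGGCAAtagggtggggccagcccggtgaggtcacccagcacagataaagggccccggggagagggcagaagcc
The C/EBP letters stood 3 times before Chil3 and Ngp and 2 times before Mmp8 and Ltf, so the genes shown for each time course held them. Of the 8 members with a promoter, 7 held at least 1 match, all but Camp, against 36.89% of 27025 mouse promoters of the same length. Of the other motifs searched on both strands, GGG and CC spaced 5 bases apart (NF-kB) matched in 4 of 8 against 45.4% of all promoters, GAGGAA (PU.1) in 4 of 8 against 23.1%, TTCNNNGAA (STAT) in 1 of 8 against 7.18%, TATAAA in 0 of 8 against 12.97% and the shorter TATAA, which TATAAA contains, in 2 of 8 against 23.5%. These are matches of letters in a window and were not tested.

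In Ccr2, Cxcr2 and Itgam the sorted cells carried the markers of their gates, and lists of other cell types are given further on. Ccr2, the monocyte chemokine receptor, had group means between 12.16 and 12.35 in Mo and between 6.18 and 6.53 in PMN arrays, on the log2 intensity scale used throughout. Cxcr2, the neutrophil chemokine receptor, lay between 5.59 and 6.33 in Mo and between 12.50 and 12.61 in PMN arrays. Itgam, which encodes CD11b, lay between 10.89 and 11.90 in all 6 groups. The array of Mo cells at 6 weeks called replicate 2 stood apart in neutrophil markers: Ly6g read 8.95 there against 6.56 and 6.43 on the other Mo arrays of that stage. Results that rest on it are given with and without it. The deposited values of Mo and PMN arrays looked as if each subset had been normalized on its own, so levels of the subsets are set side by side without a test, and only changes within a subset, or differences between such changes, were tested. These are bulk samples, so more cells that make a transcript and more transcript per cell cannot be told apart.

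In Mo cells some of the granule genes were higher at 3 weeks and nearly all at 6 weeks. At 3 weeks 4 of the 10 passed the test as higher than in naive mice (Mmp8, Lcn2, Chil3 and Hp), where 5.2% of all 19938 genes did. By 6 weeks 9 of 10 were higher than naive, all but Mmp9, where 21.8% of all genes were, and 8 of 10 were higher than at 3 weeks, where 4.38% of all genes were. With the replicate number as a block within the Mo arrays 9 of 10 were higher than at 3 weeks, Olfm4 included, where 1640 of 19938 genes were. That the numbers pair these arrays was taken from the same data, not from the labels, and is uncertain. In PMN cells the calls came at 6 weeks. At 3 weeks 0 of 10 members passed against naive, where 0% of all genes did, and at 6 weeks 9 of 10 were higher than naive, all but Ngp, where 25.5% of all genes were. With the PMN arrays fitted alone 10 of 10 were higher than naive at 6 weeks, where 5423 of 19938 genes were. Against 3 weeks all 10 were higher in PMN cells at 6 weeks, where 23.7% of all genes were. None of the 10 passed as lower in any of these 6 comparisons. The tests are moderated tests of limma, two-sided, adjusted by Benjamini-Hochberg over all 19938 genes and passed below 0.05. The comparisons with naive cells of a subset share their control arrays.

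**Figure D1:**
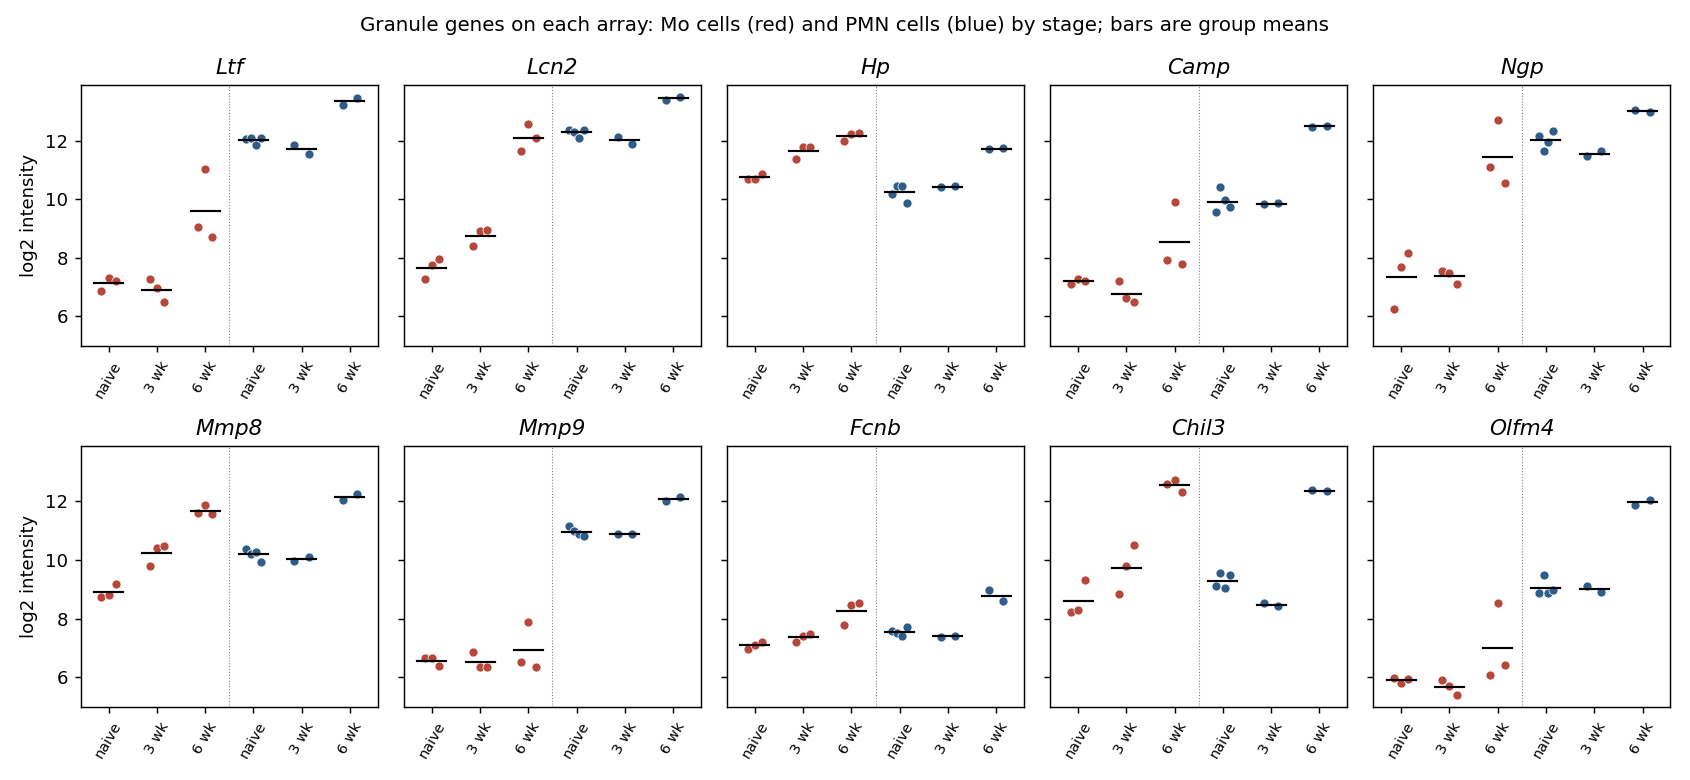
Each panel plots 1 granule gene, with log2 intensity on the vertical axis and the stage on the horizontal axis, for Mo cells (red, left of the dotted line) and PMN cells (blue, right). Points are arrays and bars are group means; Lcn2 in Mo cells goes from a mean of 7.67 in naive mice to 12.10 at 6 weeks, while Mmp9 in Mo cells stays between 6.33 and 7.88 on all 9 arrays.

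The median change of the 10 genes in Mo cells was 0.15 at 3 weeks and 1.93 at 6 weeks against naive, beside -0.05 and -0.09 over all genes. In PMN cells it was -0.16 at 3 weeks and 1.41 at 6 weeks, beside 0.01 and -0.18 over all genes. Centring each array on its median shifted the median of all genes by 0.14 and 0.19 in the Mo comparisons and by 0.19 in PMN cells at 6 weeks. All members that passed against naive at 6 weeks also passed and kept their direction on that scale. The share of all calls that were higher moved with it, from 47.2% to 80.8% in Mo cells and from 38.9% to 62.2% in PMN cells at 6 weeks, and from 86.2% to 97.9% in Mo cells at 3 weeks.

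Lcn2 encodes a lipocalin that captures bacterial siderophores, the small molecules with which bacteria take up iron. Mo cells gave 7.29, 7.75 and 7.97 in naive mice, 8.39, 8.91 and 8.95 at 3 weeks and 11.63, 12.58 and 12.08 at 6 weeks. The 3 stages did not overlap, and each was above the one before. The rise over naive was 1.08 ± 0.21 (SE) at 3 weeks, 2.11-fold (limma adjusted p = 0.018), and 4.43 ± 0.21 at 6 weeks, 21.5-fold (adjusted p = 1.24e-09). PMN cells gave 12.38, 12.31, 12.07 and 12.35 in naive mice, 12.13 and 11.89 at 3 weeks and 13.40 and 13.49 at 6 weeks. Both 6-week arrays lay above the other PMN arrays, by 1.17 ± 0.22 over naive (2.25-fold, limma adjusted p = 0.000325). Naive and 3-week PMN arrays overlapped.

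Ltf encodes lactoferrin, the iron-binding protein that is the usual marker of specific granules. Naive Mo cells read 6.87, 7.32 and 7.22, 3-week cells 7.27, 6.97 and 6.49 and 6-week cells 9.05, 11.03 and 8.72. Naive and 3-week arrays overlapped (change -0.23 ± 0.39), and the 6-week arrays lay apart above both. The 6-week rise over naive was 2.47 ± 0.39 (5.53-fold, limma adjusted p = 0.000196), and 1.75 ± 0.19 without replicate 2. PMN cells read 12.04, 12.10, 11.86 and 12.07 in naive mice, 11.86 and 11.56 at 3 weeks and 13.23 and 13.47 at 6 weeks. Here too only the 6-week arrays stood above the rest, by 1.33 ± 0.41 over naive (2.51-fold, limma adjusted p = 0.01). Without PMN 6-week replicate 2 that change was 1.21 and did not pass (adjusted p = 0.0781).

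Hp encodes haptoglobin, which binds free haemoglobin. Its values in Mo cells were 10.70, 10.70 and 10.87 in naive mice, 11.37, 11.80 and 11.77 at 3 weeks and 11.98, 12.23 and 12.26 at 6 weeks. The stages did not overlap. The change over naive was 0.89 ± 0.14 at 3 weeks (1.85-fold, limma adjusted p = 0.00878) and 1.40 ± 0.14 at 6 weeks (2.64-fold, adjusted p = 3.43e-06). From 3 to 6 weeks it was 0.51 ± 0.14 (adjusted p = 0.0374), a call that was lost in 9 of 17 fits that left out 1 array, among them the fit without replicate 2 (0.47, adjusted p = 0.149). In PMN cells the values were 10.18, 10.45, 10.43 and 9.87, then 10.43 and 10.44, then 11.71 and 11.75. The 6-week pair stood alone, 1.50 ± 0.15 over naive (2.82-fold, limma adjusted p = 7.35e-07).

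Camp encodes the precursor of the mouse cathelicidin, a peptide that disrupts bacterial membranes. In Mo cells it read 7.12, 7.27 and 7.20 in naive mice, 7.21, 6.63 and 6.49 at 3 weeks and 7.94, 9.89 and 7.79 at 6 weeks. One 6-week array was about 2 log2 units above the other two, and all 3 were above the earlier arrays. The rise over naive was 1.34 ± 0.38 (2.54-fold, limma adjusted p = 0.0107) and 0.67 ± 0.21 without replicate 2 (adjusted p = 0.031). PMN cells read 9.56, 10.41, 9.97 and 9.72 in naive mice, 9.83 and 9.86 at 3 weeks and 12.47 and 12.50 at 6 weeks. The 6-week pair lay above all 6 earlier arrays, 2.57 ± 0.40 over naive (5.93-fold, limma adjusted p = 5.83e-05).

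Ngp encodes a protein of the cathelicidin and cystatin families that neutrophil precursors make in quantity. Mo cells gave 6.24, 7.68 and 8.17 in naive mice, 7.57, 7.49 and 7.11 at 3 weeks and 11.09, 12.69 and 10.55 at 6 weeks. Naive and 3-week arrays overlapped with a change of 0.03 ± 0.44, and every 6-week array was above 10. The 6-week rise was 4.08 ± 0.44 (16.9-fold, limma adjusted p = 6.17e-06), and 3.46 ± 0.37 without replicate 2. Naive PMN cells gave 12.15, 11.66, 11.96 and 12.31, 3-week cells 11.46 and 11.63 and 6-week cells 13.04 and 12.98. The 6-week pair lay above all others, but the change over naive, 0.99 ± 0.47, did not pass (limma adjusted p = 0.0739; 0.000143 with PMN arrays fitted alone), and that over 3 weeks did (1.46 ± 0.54, adjusted p = 0.0304). The latter call was lost without any 1 of the 4 tumour PMN arrays (adjusted p from 0.0838 to 0.112).

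Mmp8 encodes neutrophil collagenase, a protease of specific granules. Its values in Mo cells were 8.73, 8.82 and 9.17 in naive mice, 9.78, 10.39 and 10.49 at 3 weeks and 11.60, 11.88 and 11.57 at 6 weeks. The stages were separate, and the spread within a stage was widest at 3 weeks (SD 0.38, against 0.23 in naive mice and 0.17 at 6 weeks). Over naive it rose by 1.32 ± 0.17 at 3 weeks (2.49-fold, limma adjusted p = 0.00173) and by 2.78 ± 0.17 at 6 weeks (6.86-fold, adjusted p = 3.05e-08). PMN cells had 10.37, 10.19, 10.27 and 9.94 in naive mice, 9.97 and 10.11 at 3 weeks and 12.04 and 12.24 at 6 weeks. The rise at 6 weeks was 1.95 ± 0.18 (3.87-fold, limma adjusted p = 2.42e-07), with naive and 3-week arrays overlapping.

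Mmp9 encodes gelatinase B, the enzyme after which the gelatinase granules are named. It did not pass in Mo cells: naive arrays read 6.65, 6.65 and 6.38, 3-week arrays 6.87, 6.33 and 6.33 and 6-week arrays 6.51, 7.88 and 6.36. The groups overlapped, and a single array stood out. The 6-week change over naive was 0.36 ± 0.27 (limma adjusted p = 0.269), and -0.12 ± 0.15 without replicate 2. PMN cells read 11.17, 10.99, 10.87 and 10.83 in naive mice, 10.87 on both arrays at 3 weeks and 12.02 and 12.14 at 6 weeks. There the 6-week pair was higher by 1.12 ± 0.29 (2.17-fold, limma adjusted p = 0.00323).

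Chil3 encodes Ym1, a chitinase-like lectin without enzyme activity that forms crystals in the mouse lung. Mo cells gave 8.21, 8.28 and 9.30 in naive mice, 8.85, 9.78 and 10.51 at 3 weeks and 12.58, 12.74 and 12.32 at 6 weeks. Naive and 3-week arrays overlapped, although the change of 1.12 ± 0.32 passed (limma adjusted p = 0.048), and the 6-week arrays were 3.95 ± 0.32 over naive (15.4-fold, adjusted p = 2.55e-07). PMN cells gave 9.10, 9.55, 9.04 and 9.49 in naive mice, 8.52 and 8.43 at 3 weeks and 12.38 and 12.36 at 6 weeks. The 3-week pair was below every naive array, a change of -0.82 ± 0.34 that did not pass (limma adjusted p = 1.00). It was the only member among 374 genes with an unadjusted p under 0.05 in that comparison. From that low point the 6-week pair was 3.90 ± 0.39 higher, 14.9-fold (limma adjusted p = 1.12e-06). Chil4, the near-identical neighbour of Chil3, has its own feature, but the probes of either may bind transcripts of both, so the Chil3 values are uncertain in that respect. Chil4, added after the values were seen, read between 4.54 and 6.21 on the 17 arrays and was 0.84 ± 0.11 over naive in Mo and 0.34 ± 0.12 in PMN cells at 6 weeks (limma adjusted p = 3.4e-05 and 0.0167).

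Fcnb encodes ficolin B, a lectin that binds sugars on microbes and starts the lectin pathway of complement. Mo cells read 6.97, 7.12 and 7.19 in naive mice, 7.20, 7.42 and 7.48 at 3 weeks and 7.77, 8.46 and 8.54 at 6 weeks. The 3-week arrays lay just above the naive ones without passing (0.27 ± 0.16, limma adjusted p = 0.235), and the 6-week change was 1.16 ± 0.16 (2.23-fold, adjusted p = 6.9e-05). In PMN cells it read 7.59, 7.49, 7.42 and 7.73, then 7.38 and 7.41, then 8.96 and 8.59. The 6-week pair was higher than naive by 1.22 ± 0.17 (2.32-fold, limma adjusted p = 2.14e-05). The change in Mo cells minus that in PMN cells was -0.06 ± 0.24 (adjusted p = 0.909).

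Olfm4 encodes olfactomedin 4, a glycoprotein found in only some neutrophils. In Mo cells it read 5.97, 5.81 and 5.93 in naive mice, 5.89, 5.69 and 5.39 at 3 weeks and 6.06, 8.52 and 6.42 at 6 weeks. The naive and 3-week arrays lay under 6, where a floor was set as an alternative, so the size of a change from there is uncertain. The 6-week change was 1.09 ± 0.40 (2.13-fold, limma adjusted p = 0.0366), and it did not pass without replicate 2 (0.33 ± 0.18, adjusted p = 0.164), with values floored (1.00, adjusted p = 0.121), with Mo arrays fitted alone (adjusted p = 0.106) or without any 1 of the naive Mo arrays (adjusted p from 0.0581 to 0.0935). Against 3 weeks it was 1.34 ± 0.40 and did not pass (adjusted p = 0.0526), and it did with the replicate number as a block within the Mo arrays (adjusted p = 0.0165). PMN cells read 8.86, 9.50, 8.86 and 8.97 in naive mice, 9.11 and 8.89 at 3 weeks and 11.86 and 12.06 at 6 weeks. That late rise was 2.91 ± 0.43 over naive, 7.54-fold (limma adjusted p = 3.28e-05), the second largest of the 10 in PMN cells after Chil3 at 8.44-fold.

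**Figure D2:**
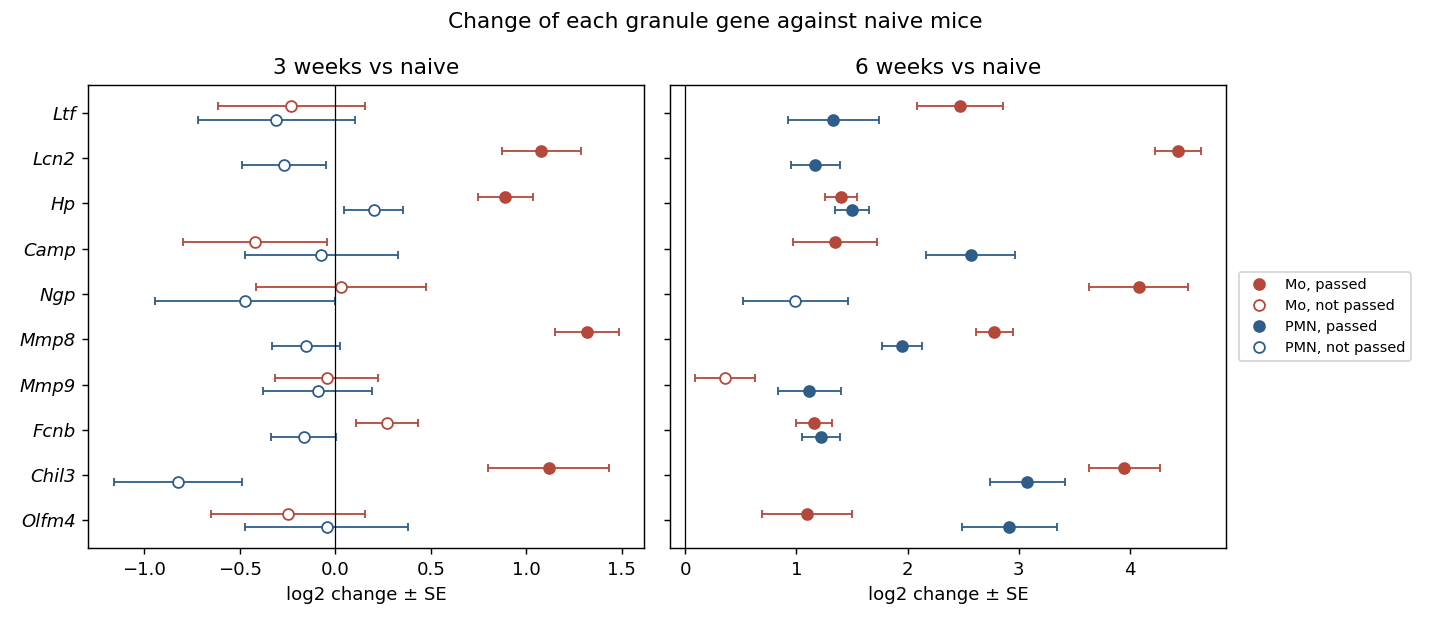
Log2 change against naive mice (horizontal axis, ± SE from the fit) for each of the 10 genes at 3 weeks (left) and 6 weeks (right), with Mo cells in red and PMN cells in blue. Filled points passed at an adjusted p below 0.05. At 3 weeks 4 Mo points are filled and no PMN point is, and at 6 weeks Mmp9 in Mo and Ngp in PMN cells are the open points.

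The 3-week calls in Mo cells rest on few arrays. With the Mo arrays fitted alone 0 of the 4 passed, and with values floored 2 did, Mmp8 and Hp. Leaving out naive replicate 1 or 2, or 3-week replicate 2 or 3, left Mmp8 as the 1 member that passed. Of the arrays of these 2 groups, only naive replicate 3 and 3-week replicate 1 could be left out without losing Lcn2 and Hp. Leaving out an array of another group could not move the change itself, only its error and adjusted p. Mmp8 passed in all 17 fits that left out 1 array (adjusted p up to 0.0208), Lcn2 and Hp in 13 each and Chil3 in 4. The values of 3-week replicate 1 were the lowest of its group for Mmp8, Lcn2, Chil3, Hp and Fcnb, and highest for Ltf, Camp, Ngp, Mmp9 and Olfm4.

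At 6 weeks the 3 Mo arrays differed among themselves in some members and not in others. Replicate 2 was the highest for 8 of the 10 genes, all but Fcnb and Hp. Its distance to the next array was 2.10 in Olfm4, 1.98 in Ltf, 1.95 in Camp, 1.60 in Ngp and 1.37 in Mmp9, but 0.50 in Lcn2, 0.28 in Mmp8 and 0.16 in Chil3. Markers of mature neutrophils were high on the same array. Ly6g stood 2.39 above the next array, Retnlg 2.37, Stfa3 2.94 and Cxcr2 1.17. On the other 6-week Mo arrays Retnlg (5.55 and 5.70) and Stfa3 (5.13 and 5.31) lay under 6 and Cxcr2 near it (5.66 and 6.09). The sizes of those gaps are therefore uncertain. Early granulocyte genes were not highest on replicate 2, since Mpo, Elane, Ctsg and Ms4a3 were highest on replicate 3. Ccr2, the monocyte marker, read 12.26, 12.10 and 12.12. Without replicate 2, 8 of the 10 members still passed as higher than naive, all but Mmp9 and Olfm4, where 3299 of 19938 genes did. The markers Ly6g (0.42, adjusted p = 0.161) and Cxcr2 (0.28, adjusted p = 0.0981) did not pass in that fit.

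**Figure D3:**
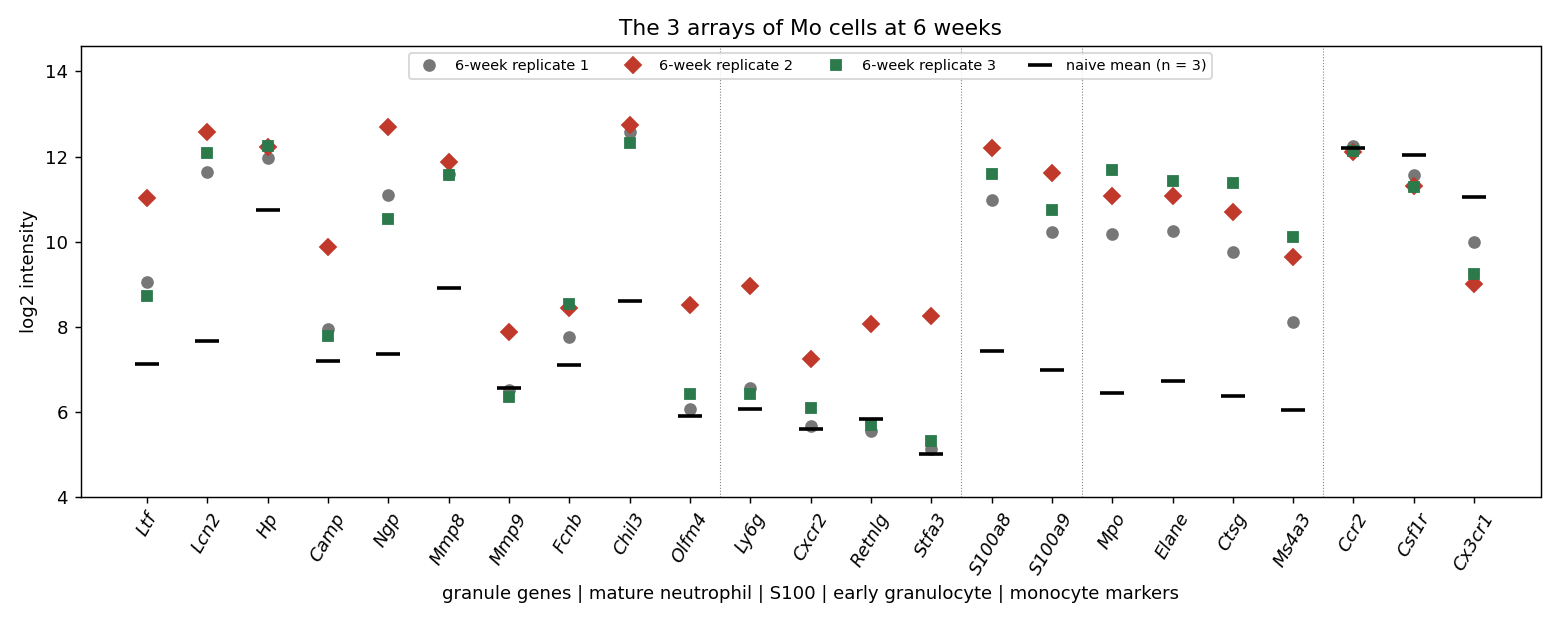
Log2 intensity (vertical axis) of the 10 granule genes and of marker genes of 4 kinds (horizontal axis) on the 3 arrays of Mo cells at 6 weeks, with the mean of the 3 naive Mo arrays as a bar. The red diamonds of replicate 2 stand about 2 units above the other arrays in Ltf, Camp, Olfm4, Ly6g and Retnlg and lie among them in Fcnb, Hp, Mpo and Ccr2.

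Over whole marker lists, the summed intensity of 8 neutrophil markers was between 1609 and 1990 on naive Mo arrays and between 2083 and 2678 at 3 weeks, and read 4999, 11290 and 6845 at 6 weeks. On PMN arrays it was between 23530 and 27090 in naive mice and between 43590 and 46170 at 6 weeks. Of these 8 genes 5 rose and 1 fell (Csf3r) in Mo cells at 6 weeks against naive, where 21.8% and 24.4% of all genes did. S100a8 (4.16) and S100a9 (3.88) led the rises, and 3 of the 8 rose without replicate 2, where 3299 of 19938 genes did. The 5 early granulocyte markers summed to between 440.1 and 595.1 in naive Mo cells and to 4669, 8955 and 12730 at 6 weeks. All 5 rose, where 21.8% of all genes did, and all 5 also rose without replicate 2, where 3299 of 19938 genes did. The 6 monocyte markers summed to between 15020 and 16610 in naive and to between 10540 and 13040 in 6-week Mo cells. Of these 6, 0 were higher and 4 lower, Cx3cr1 most (-1.64), where 21.8% and 24.4% of all genes were. In PMN cells at 6 weeks 6 of 8 neutrophil markers rose, Stfa3 most (5.09), and 1 fell, where 25.5% and 40% of all genes did. The naive PMN mean of 1 of the 8 was 5.38, under the floor of 6, so the size of its change is uncertain. Lower were 4 of 4 measured B cell markers (median -1.69) and 2 of 6 monocyte markers, where 40% of all genes were. The B cell sum was between 1962 and 2164 on naive PMN arrays, between 1660 and 2280 at 3 weeks and between 629.4 and 642.9 at 6 weeks. On Mo arrays the B cell sum was between 608.4 and 1227 in naive mice and between 415 and 556.3 at 6 weeks. The monocyte sum stayed between 1757 and 2632 over all PMN arrays. Of the lists for T and NK cells, erythroid cells, platelets, dendritic cells, eosinophils and basophils, and epithelium, 2 members in all passed as higher in Mo cells at 6 weeks, 1 dendritic cell gene and 1 of eosinophils and basophils. Lower in Mo cells were 5 of 6 T and NK cell markers (median -0.93), 3 of 5 of dendritic cells, 2 of 4 of platelets, 1 of 6 of eosinophils and basophils and 3 of 4 measured B cell markers (median -0.71), where 24.4% of all genes were. In PMN cells at 6 weeks 4 of 4 epithelial markers (median -0.44), 3 of 5 of dendritic cells, 2 of 6 of T and NK cells and 1 each of the erythroid, platelet and eosinophil and basophil lists were lower, where 40% of all genes were. There 1 T and NK cell marker and 1 of eosinophils and basophils were higher. The part of these cells in the changes of the granule genes was not tested.

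The difference between the subsets was tested as the change in Mo cells minus the change in PMN cells. From naive to 6 weeks 4 of the 10 members passed, where 17.5% of all genes did in either direction. Lcn2 rose more in Mo cells by 3.26 ± 0.30 (limma adjusted p = 2.77e-06) and Ngp by 3.09 ± 0.65 (adjusted p = 0.00325), and both passed in every alternative run. Mmp8 rose more in Mo cells by 0.83 ± 0.24 (adjusted p = 0.0263) and Olfm4 more in PMN cells (-1.82 ± 0.59, adjusted p = 0.041). Both calls were lost in fits that left out 1 array, that of Mmp8 in 6 of 17 and that of Olfm4 in 13 of 17. Without Mo 6-week replicate 2 the Mmp8 difference was 0.73 (adjusted p = 0.069) and that of Olfm4 -2.58. In that same fit Camp (-1.90, adjusted p = 0.000413) and Mmp9 (-1.24, adjusted p = 0.000995) also passed as rising more in PMN cells, where their values with all arrays were -1.22 ± 0.55 and -0.76 ± 0.39 and did not pass. For Ltf (1.14 ± 0.56), Chil3 (0.87 ± 0.46), Fcnb and Hp (-0.10 ± 0.21) no difference passed.

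From 3 to 6 weeks 3 of the 10 differed, a share near that of all genes (29.2%). Ngp (2.59 ± 0.70, limma adjusted p = 0.0117) and Lcn2 (1.91 ± 0.33, adjusted p = 0.000424) rose more in Mo cells, and Hp rose more in PMN cells (-0.79 ± 0.23, adjusted p = 0.017). The Hp call was lost without replicate 2 of the 3-week or of the 6-week PMN arrays (adjusted p = 0.0523 and 0.0566). Without Mo 6-week replicate 2 the count was 6, as Camp (-1.55, adjusted p = 0.0021), Mmp9 (-1.29, adjusted p = 0.000816) and Olfm4 (-2.37, adjusted p = 2.74e-05) also passed as rising more in PMN cells. In that fit 1969 of 19938 genes passed with a positive and 3248 with a negative difference. From naive to 3 weeks 0 of 10 passed, where 0.00502% of all genes did, and Mmp8 had the lowest adjusted p of the 10 (1.47 ± 0.24, adjusted p = 0.0626). An unadjusted p under 0.05 was reached there by 4 members and by 16.6% of all genes. Set side by side, the mean level in Mo cells at 6 weeks was near that of PMN cells for Chil3 (12.54 and 12.37), Hp (12.16 and 11.73) and Mmp8 (11.68 and 12.14), and lower for Mmp9 (6.92 and 12.08) and Olfm4 (6.998 and 11.96). These levels come from subsets that looked as if normalized apart, and their order depends on the scale. After joint quantile normalization they were 12.07 and 12.63 for Chil3 and 11.68 and 12.07 for Hp, which turned the order of both, and 11.20 and 12.48 for Mmp8.

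Other genes of the same granules were mostly higher in PMN cells at 6 weeks and less often in Mo cells. Of 25 further specific and gelatinase granule genes, 21 were measured by a feature of their own. In PMN cells at 6 weeks 17 of the 21 were higher than naive and 1 lower, where 25.5% of all genes were higher and 40% lower. The urokinase gene Plau rose by 2.40, Cd177, a surface protein of specific granules, by 2.21, and the oxidase subunit Cyba by 1.98, while Ptx3 fell by 0.43. In Mo cells 5 of 21 were higher and 2 lower, where 21.8% and 24.4% of all genes were. These were Tcn2, a carrier of vitamin B12 (0.74), Slpi, a protease inhibitor (0.66), Plau (0.64), Cyba (0.60) and Stom (0.36), with B2m and Bpi lower. Without Mo 6-week replicate 2, 3 were higher and 1 was lower, where 3299 and 2059 of 19938 genes were. The median change of the list was 0.11 in Mo and 1.24 in PMN cells, where the 10 members had 1.93 and 1.41. The difference between the subsets passed for 16 of the 21, all in the direction of a larger rise in PMN cells, where 11% of all genes did. At 3 weeks 2 of 21 were higher in Mo cells, Slpi (0.63) and Tcn2 (0.62), where 5.2% of all genes were. In PMN cells 0 were, where 0% of all genes were.

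**Figure D4:**
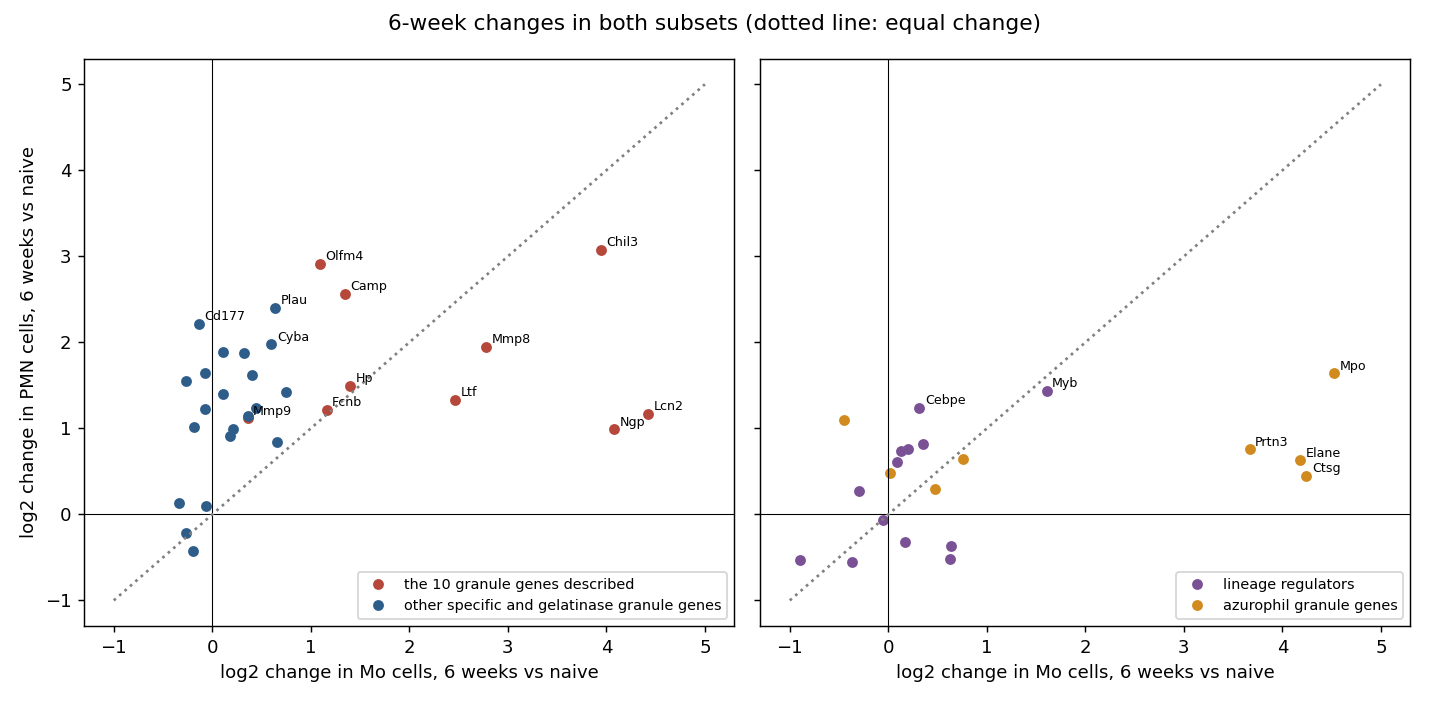
Log2 change from naive to 6 weeks in Mo cells (horizontal axis) against that in PMN cells (vertical axis), 1 point per gene, with a dotted line where both are equal. On the left, Lcn2, Ngp and Chil3 lie far to the right while the other specific and gelatinase granule genes lie left of 1; on the right, Mpo, Elane, Ctsg and Prtn3 lie between 3.67 and 4.53 in Mo cells.

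Azurophil granule genes were followed as the neighbouring class. Mpo, Elane, Ctsg and Prtn3 are also among the early granulocyte markers counted above, so the counts of these lists are not separate results. In Mo cells at 6 weeks 5 of 8 rose, namely Mpo by 4.53, Ctsg by 4.24, Elane by 4.18, Prtn3 by 3.67 and Gusb by 0.75, where 21.8% of all genes were higher. In PMN cells 5 of 8 rose too, with Mpo at 1.64, Cd63 at 1.10, Prtn3 at 0.76 and Gusb at 0.64 the largest, where 25.5% of all genes were higher. The 4 serine protease and peroxidase genes changed more in Mo cells, by 2.89 for Mpo, 2.91 for Prtn3, 3.55 for Elane and 3.79 for Ctsg, as did Lcn2 and Ngp among the specific granule genes. Cd63 (-1.55, adjusted p = 0.00123) and Man2b1 (-0.46, adjusted p = 0.0307) rose more in PMN cells, so the 8 azurophil genes did not all go one way.

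Among 13 regulators of granule genes and of the granulocyte and monocyte lineages, Cebpe and Gfi1, which act in the making of specific granules, rose in PMN cells by 1.24 ± 0.14 and 0.76 ± 0.13 at 6 weeks (limma adjusted p = 1.45e-06 and 0.000111). They did not pass in Mo cells (0.31 ± 0.13, adjusted p = 0.0522, and 0.20 ± 0.12, adjusted p = 0.17), and both differences between the subsets passed (-0.93 and -0.56). Myb, a factor of dividing precursors, rose in both, by 1.61 in Mo and 1.44 in PMN cells. In all, 4 of the 13 were higher and 2 lower in Mo cells, where 21.8% and 24.4% of all genes were. Without replicate 2 these counts were 3 and 1, where 3299 and 2059 of 19938 genes were higher and lower. In PMN cells 6 were higher and 4 lower, where 25.5% and 40% of all genes were. Irf8, which favours monocytes over granulocytes, rose in Mo cells by 0.62 and fell in PMN cells by 0.52. Klf4 (0.64) and Spi1 (0.35) were the other rises in Mo cells, and Lef1 (-0.90) and Csf3r (-0.37) the falls. Spi1 and Csf3r did not pass without replicate 2 (adjusted p = 0.0869 and 0.0676).

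Receptors, inhibitors and partners of the 10 proteins were counted as well. Of 16 measured, 1 was higher and 5 lower in Mo cells at 6 weeks, where 21.8% and 24.4% of all genes were. Without replicate 2 the falls were 2, where 2059 of 19938 genes were lower. In PMN cells 3 were higher and 10 lower, where 25.5% and 40% of all genes were. Tfrc, the transferrin receptor of dividing cells, rose by 2.26 and 1.73. Timp2, an inhibitor of metalloproteinases, fell by 1.04 in Mo cells and rose by 1.39 in PMN cells, a difference of -2.43. Cd163, the receptor for haptoglobin bound to haemoglobin, fell by 0.45 in Mo cells (not passed without replicate 2, adjusted p = 0.09) and rose by 0.71 in PMN cells. Slc22a17, described as a receptor for Lcn2, had -0.26 in Mo cells without passing and fell by 0.29 in PMN cells.

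The genes with the pattern most like the mean of the 10 members, over the 9 Mo arrays, were Lrg1 (Pearson r = 0.985), Cd33 (0.982) and S100a9 (0.977), out of 824 genes whose Mo group means range by at least 1. Over the 8 PMN arrays they were Csnk2a1 (0.9996), E2f2 (0.999) and Slc25a24 (0.999), out of 2228. The most like gene in Mo cells was Ly6g for Camp (0.969), Mmp9 (0.904) and Olfm4 (0.986), S100a8 for Lcn2 (0.995), S100a9 for Ngp (0.966), Slc28a2 for Mmp8 (0.995), F10 for Hp (0.996), Ms4a8a for Chil3 (0.978), Tfdp1 for Fcnb (0.997) and Flt3 for Ltf (0.966). All these arrays share the same few groups, so a gene that differs between stages correlates with any other, and the values are descriptions. Between members, r over the 9 Mo arrays ran from 0.233 (Mmp9 and Hp) to 0.975 (Mmp8 and Hp), and over the 8 PMN arrays from 0.732 (Ngp and Hp) to 0.996 (Ltf and Lcn2).

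Camp, Ngp and Ltf lie on one stretch of chromosome 9, from 109847377 to 111042766 on GRCm38.p6, a window chosen after the values were seen. Between the outer ends lie 29 other measured genes. Of these, 4 were higher and 8 lower in Mo cells at 6 weeks (median -0.14), and 7 were higher and 13 lower in PMN cells (median -0.23). Over all genes 21.8% were higher and 24.4% lower in Mo cells (median -0.09), and 25.5% and 40% in PMN cells (median -0.18). Cdc25a, a phosphatase of the cell cycle, had the largest rise in both, 1.38 and 2.21. The other members lie elsewhere: Mmp8 near the start of chromosome 9 (7558429 to 7568486), Lcn2, Fcnb and Mmp9 on chromosome 2, Chil3 on 3, Hp on 8 and Olfm4 on 14.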

How the data were processed

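The 17 arrays were Affymetrix Mouse Gene 1.0 ST. Per the submitters' processing notes the authors used RMA, whose version is not given in the sources used here. The deposited intensity values ran from 9.76 to 32095, so they are on a linear scale. The plan assumed log2 values, and log2 was taken here. Pairs of Mo arrays shared a median of 942.5 values, pairs of PMN arrays 251 and pairs across subsets 146, so the subsets were treated as normalized apart.

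Of 35557 features 21789 carried 1 symbol, 1621 several and 12147 none. The feature with the highest mean was kept for the 999 genes with several, which left 19938 genes. Coordinates are those of RefSeq on GRCm38.p6, and 21698 of the 21789 features matched it by Entrez number. No dim gene was left out, and the files give no detection calls. A linear model with 1 mean per group was fitted to all 17 arrays (lmFit, contrasts.fit and eBayes of limma 3.58.1, run under R 4.3.3), with two-sided tests adjusted by Benjamini-Hochberg over the 19938 genes and an adjusted p below 0.05 as passed. The members, lists and motifs were chosen with earlier results of these data known. Genes named are the 10 members, up to 4 of each list by size among those that passed, fixed markers and the genes with the most like pattern, and others are said to be chosen later. Deviations of same-numbered arrays from their group means correlated by over 0.1 in 7 of 9 pairs within Mo cells, 0 of 6 within PMN cells and 2 of 21 across subsets. Every same-numbered pair passed 0.1 only between Mo 3-week and Mo 6-week arrays (0.28 to 0.63). The numbers were therefore taken to pair those 2 groups and no others, which comes from the data, not the labels. Over all groups 25 of 83 pairs of different number also passed 0.1, up to 0.52, beside 9 of 36 of the same number. Mo 3-week replicate 2 correlated more with 6-week replicate 3 (0.32) than with 6-week replicate 2 (0.28). These correlations therefore cannot settle whether the numbers mark pairs. A replicate block within the Mo arrays was added after the data were seen. Alternatives were each subset fitted alone, a floor of 64, a dim gene filter (mean log2 under 7 in every group), median centring, joint quantile normalization, array weights, mean of features, the replicate number as a block, and each array left out. The default estimation of array weights stopped before converging, so gene-by-gene weights replaced it after its calls had been seen. The pipeline was tested on simulated data. The number of arrays limits the precision.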

Additional observations from a re-analysis of the deposited data

Results flagged for a closer look

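Of 18 genes read on the same 4 naive PMN arrays and examined for an array far from the others, 3 had one. Chance alone gives about 1 in 20 for 1 gene. Genes read on the same arrays are not independent, so the count of 3 cannot be set against that rate. Groups of fewer than 4 arrays, all Mo groups among them, were not examined. In all 3 genes the array was naive PMN replicate 2, the highest of the 4. It read 9.50 in Olfm4, 11.14 in Ly6g and 6.40 in Ccr2. In each, the gap to the next array was over 0.8 of the range of the 4.

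The other results listed for a closer look are differences between the 2 subsets in the size of the same stage change, tested as the change in Mo cells minus the change in PMN cells. From naive to 6 weeks these were Lcn2 (3.26), Ngp (3.09), Mmp8 (0.83) and Olfm4 (-1.82). From 3 to 6 weeks they were Lcn2 (1.91), Ngp (2.59) and Hp (-0.79). In Lcn2 and Ngp the naive level in PMN cells was already above 12 on the log2 scale. In both the Mo level at 6 weeks stayed below that of PMN cells at the same stage, with subsets treated as normalized apart. Mo 6-week replicate 2 moved the value of Olfm4 from -1.82 to -2.58, and Ly6g was also high on that array (8.95). The part of neutrophil markers in this value was not tested.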

How the results depend on the processing

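Of 2250 values of single members under alternatives, 2118 kept their side of the threshold, 84 no longer passed, 48 newly passed and 0 reversed a call. Among the 2118 were 29 that passed in neither fit and differed in sign. The 2250 include fits that left out an array of no compared group, where the change itself could not move. For Mo cells at 3 weeks the members that passed (4) became 0 with Mo arrays fitted alone and 2 with a floor, and the genes that passed (1202) became 2 and 115, 1904 without dim genes, 354 after joint quantile normalization, 13210 with array weights and 2647 with the replicate block. For Mo cells at 6 weeks against naive (9204 genes) they became 5584 fitted alone and 5241 after quantile normalization, and against 3 weeks (1497) 877 and, with weights, 3731. For PMN cells at 3 weeks 13 genes passed with a floor. At 6 weeks 7887 passed against naive (13047) without dim genes, and against 3 weeks (11694) 7410 without dim genes and 7720 after centring. For the difference between subsets at 3 weeks (0 members, 1 gene), 1 member passed without dim genes, after quantile normalization or with the replicate block, and 5 with weights; the genes became 5 with a floor, 9 without dim genes, 15 after quantile normalization, 6358 with weights, 3 with the mean of features and 4 with the block. At 6 weeks against naive (4 members, 3487 genes) 2 members passed with a floor or after centring, with 2260 genes after centring and 5709 with weights. At 6 against 3 weeks (3 members, 5818 genes) 5 members passed after quantile normalization and 6 with weights, with 10262 genes. The cause was not tested.

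Leaving out 1 array at a time gave, for Mo cells, 1 to 4 members and 16 to 8911 genes at 3 weeks, 8 to 9 and 4475 to 10686 at 6 weeks against naive, and 7 to 9 and 1000 to 2803 against 3 weeks. For PMN cells it gave 0 and 0 at 3 weeks, 8 to 10 and 9383 to 13777 at 6 weeks against naive, and 8 to 10 and 7627 to 12662 against 3 weeks. For the differences it gave 0 to 4 and 0 to 3242, 2 to 5 and 2098 to 4241, and 2 to 6 and 3641 to 9334. The lowest and highest counts of genes for Mo at 3 weeks came without 3-week replicate 2 or 3 and without 3-week replicate 1. Where 1 PMN array was left in a group, its spread was taken to be that of the other groups. With a replicate block within the Mo arrays, chosen after seeing the data, 6226 genes passed for Mo cells at 3 weeks and 2806 at 6 against 3 weeks. The numbers were taken to pair only the 2 groups of the latter. The block within the Mo arrays also ties the naive Mo arrays, and the block over all 17 arrays ties the PMN arrays too, none of which were taken as paired. Probes of low signal carry the least certain changes, as in Olfm4 and Mmp9 of Mo cells.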
